A study of Homo sapiens with 4 samples.

Results

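Ceramide and sphingolipid synthesis was examined through 10 genes, DEGS1, DEGS2, SPTLC1, SPTLC2, KDSR, CERS2, CERS5, CERS6, UGCG and SGMS1, taken by gene symbol from the 15357 genes of the deposited tables. All 10 were found. They were chosen with their values in the contrast described here already known, so those values are given as a description, with no p-value, and counts of members past a threshold are part of that description and not evidence. RKO is a human colon cancer cell line. The 2 vector samples were RKO cells stably infected with a control lentivirus, which the sample titles call vector and the treatment protocol calls control shRNA, and the 2 shCHD7_2 samples were the same line infected with a lentivirus expressing 1 short hairpin RNA (shRNA) against CHD7, a chromatin remodelling ATPase. No other allele or agent is given for either group. Because a single shRNA was sequenced, loss of CHD7 and any other effect of that shRNA cannot be told apart.

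Sphingolipids are membrane lipids built on a long-chain base. Serine palmitoyltransferase starts the pathway by joining serine to palmitoyl-CoA, a reductase then gives sphinganine, ceramide synthases add a fatty acid to make dihydroceramide, and a desaturase inserts the double bond that turns dihydroceramide into ceramide. Ceramide is then converted into glucosylceramide or sphingomyelin, or is broken down to sphingosine, which can be phosphorylated. Ceramide and sphingosine 1-phosphate are known as lipid signals in growth arrest and survival, and intestinal epithelium is rich in glycosphingolipids.

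Polyadenylated RNA was sequenced. The deposited estimated counts summed to between 15734679 and 16068650 per sample. CPM values below are counts relative to library size, scaled by TMM, and compare 1 gene between samples, whereas FPKM, which is also normalized for gene length, is used to compare genes. Fold changes are shCHD7_2 against vector on the log2 scale, with standard errors (SE) from edgeR. CHD7 was at 85.4 and 91.0 CPM in the vector samples and 55.5 and 50.1 CPM in the shCHD7_2 samples, a log2 fold change of -0.74 (SE 0.088), which edgeR's quasi-likelihood test gave an adjusted p of 4.2e-06. It passed the fold threshold of 1.5 in edgeR but not on log2(FPKM + 1), where the log2 fold change was -0.51. With nothing added, the ratio of mean FPKM was -0.591 on the log2 scale, from 8.275 in vector to 5.495 in shCHD7_2, which just met that threshold. Of 11 epithelial markers, 8 were in the tables and 4 (EPCAM, KRT8, KRT18 and CDX2) reached 1 FPKM, with sums of 75.3 to 81.2 FPKM in vector and 81.6 to 90.3 FPKM in shCHD7_2. The remaining epithelial markers in the tables, CDH1, LGR5, KRT20 and CDH17, had 0 or 1 counts per sample. Summed fibroblast markers stayed at or under 0.13 FPKM (3 of 9 in the tables) and endothelial markers at or under 0.03 FPKM (2 of 5). Of 7 immune markers 4 were in the tables. CD68, a lysosomal protein, made up nearly all of their sum, with 495.0 and 529.5 FPKM in vector and 602.0 and 611.1 FPKM in shCHD7_2, and its part in the results below was not tested. In bulk RNA, fewer cells expressing a gene and less RNA of it per cell cannot be told apart.

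DEGS1, the dihydroceramide desaturase of the last step to ceramide, was 62.1% lower with shCHD7_2, and SPTLC1, a subunit of serine palmitoyltransferase at the first step, was 47.8% lower. KDSR, UGCG, CERS2, CERS5 and SGMS1 were between 13.5% and 18.8% lower, SPTLC2 and CERS6 overlapped between the groups, and DEGS2 was not detectable at this depth. Of the 10 members, 9 had counts high enough to be tested, and 2 of these met the call rule of an adjusted p under 0.05 and a fold of at least 1.5, against 2.88% of the 11955 genes tested (1.51% higher and 1.37% lower). At the adjusted p alone 4 members passed, DEGS1, SPTLC1, KDSR and UGCG, all lower, against 11.5% of the genes tested, made up of 4.94% higher and 6.54% lower. In 7 members the samples of the groups did not overlap in CPM, all with shCHD7_2 lower, against 53.7% of the genes tested (26.4% higher and 27.3% lower). The members' median log2 fold change was -0.22, and that of all genes tested was 0.00056. The members were chosen on this contrast, so nothing is read from these counts.

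**Figure D1:**
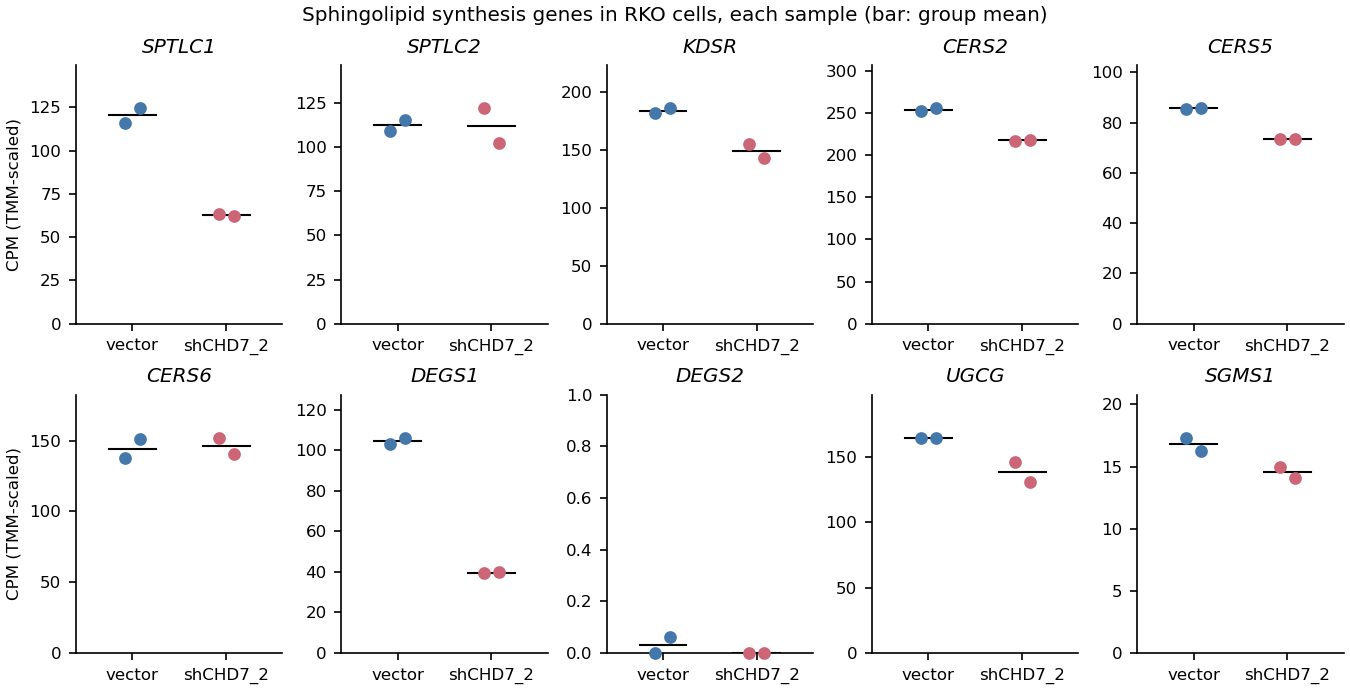
CPM on linear axes from 0 for each of the 10 members in the 2 vector and 2 shCHD7_2 samples. Points are single samples and the bars are group means. DEGS1 falls from 103 and 106 to 39.4 and 39.7, SPTLC1 from 116 and 124 to 63.4 and 62.2, and the samples of SPTLC2 and CERS6 interleave.

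DEGS1 (chr1:224175756-224193441, plus strand, 3 exons; GENCODE 29 on GRCh38) encodes the desaturase that makes ceramide from dihydroceramide in most tissues. Its estimated counts were 1596 and 1676 in vector and 632.0 and 634 in shCHD7_2, or 103 and 106 against 39.4 and 39.7 CPM. The shCHD7_2 samples were within 1 CPM of each other and far under both vector samples. The log2 fold change was -1.40 (SE 0.087), and only 13 of the 11955 genes fell at least as far, DEGS1 included. FPKM gave 54.1 ± 1.29 in vector and 21.2 ± 0.0283 in shCHD7_2 (SD, n = 2 each). Among the 10 members, DEGS1 thereby moved from rank 2 by mean FPKM in vector to rank 7 in shCHD7_2.

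The genes with the pattern most like DEGS1, by Euclidean distance between log2 CPM profiles centred on each gene's mean over the 4 samples, were MBTPS1 (distance 0.061), which encodes the site-1 protease, YWHAE (0.076), a 14-3-3 protein, and STMN1 (0.080), which encodes a tubulin-binding protein. MBTPS1 was at 132.4 and 139.4 CPM in vector and 50.2 and 49.3 CPM in shCHD7_2. With 2 samples in each of 2 groups, this distance depends mainly on the fold change between the groups. The log2 fold change was -1.45 for MBTPS1, -1.325 for YWHAE and -1.361 for STMN1. Nearness to DEGS1 therefore describes a like fold change, and nothing more is read from it.

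DEGS2 (chr14:100143957-100160163, minus strand) encodes the other desaturase, which can also hydroxylate dihydroceramide to phytoceramide and is known from skin, intestine and kidney. It had 0 and 1 counts in vector and 0 and 0 in shCHD7_2. A count of 0 allows up to 3 counts, or 0.190 to 0.191 of unscaled CPM in the 3 libraries at 0, and this limit covers counting error only. Dihydroceramide desaturase mRNA in these samples was therefore DEGS1 mRNA as far as the depth could show, and no fold is given for DEGS2.

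Because an earlier scan of these data had picked out 7-base words in 3′ untranslated regions (3′ UTRs) of genes that were lower with shCHD7_2, the longest annotated 3′ UTR of each member was searched for the word AGCTATT, for the word GAAGCTA and for the word GCTATTA. The search used the mRNA strand only. AGCTATT and GCTATTA share all but 1 base and so can be counted at 1 place, and GAAGCTA can also overlap AGCTATT. At least 1 of the words was in 6 of the 10 members, and in 22.3% of the 11693 genes that were tested and have a 3′ UTR in the annotation. The DEGS1 3′ UTR of 963 bases held AGCTATT 3 times, all in exon 3 of 3. At least 3 copies of AGCTATT were found in 47 of the 11693 genes (0.402%), and in 0 of the 1366 genes whose 3′ UTR was within 20% of the length of that of DEGS1, with DEGS1 itself left out. Because the words had been picked out from genes lower in this contrast, these shares are a description and nothing is read from them. The windows of 30 bases around the matches (GRCh38, mRNA sense, matched bases in capitals) are shown because DEGS1 had the lowest fold change of the members and the most copies, with those of the other members that carry AGCTATT for comparison:
DEGS1, chr1:224192753-224192782, plus strand: agcttctaaaaAGCTATTtcgccaggcacg
DEGS1, chr1:224193080-224193109, plus strand: aaaaaataaaaAGCTATTtctagtttattt
DEGS1, chr1:224193136-224193165, plus strand: agctaataaacAGCTATTAatcacagtgta
KDSR, chr18:63327910-63327939, minus strand: ggggagatagtAGCTATTAtattttacact
UGCG, chr9:111933933-111933962, plus strand: tttcacacatgAGCTATTttcttacacagt
CERS6, chr2:168774325-168774354, plus strand: ggacattttttAGCTATTgatttcccaata

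The third DEGS1 match and the KDSR match run on to AGCTATTA and so hold both words. In UTR coordinates counted from the base after the stop codon, the DEGS1 matches start at bases 286, 613 and 669. KDSR, UGCG and CERS6 had 1 copy of AGCTATT each, in 3′ UTRs of 4056, 2372 and 5475 bases. Their log2 fold changes were -0.30, -0.25 and 0.02, so that the members with 1 copy spanned the range from modestly lower to overlapping. At least 1 word was present in 46.1% of genes with a 3′ UTR within 20% of the length of that of KDSR. The share was 27.8% for UGCG, 57.9% for CERS6 and 11.6% for DEGS1. Nothing is read from these shares or from the copy numbers, because the words had been picked out from genes lower in this contrast. SPTLC2 and DEGS2 held GAAGCTA once each, in 3′ UTRs of 6287 and 2804 bases. The annotated 3′ UTRs of SPTLC1, CERS2, CERS5 and SGMS1 held none of the words, at log2 fold changes of -0.94, -0.22, -0.22 and -0.21. These matches describe letters in the reference sequence and identify no binding site.

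**Figure D2:**
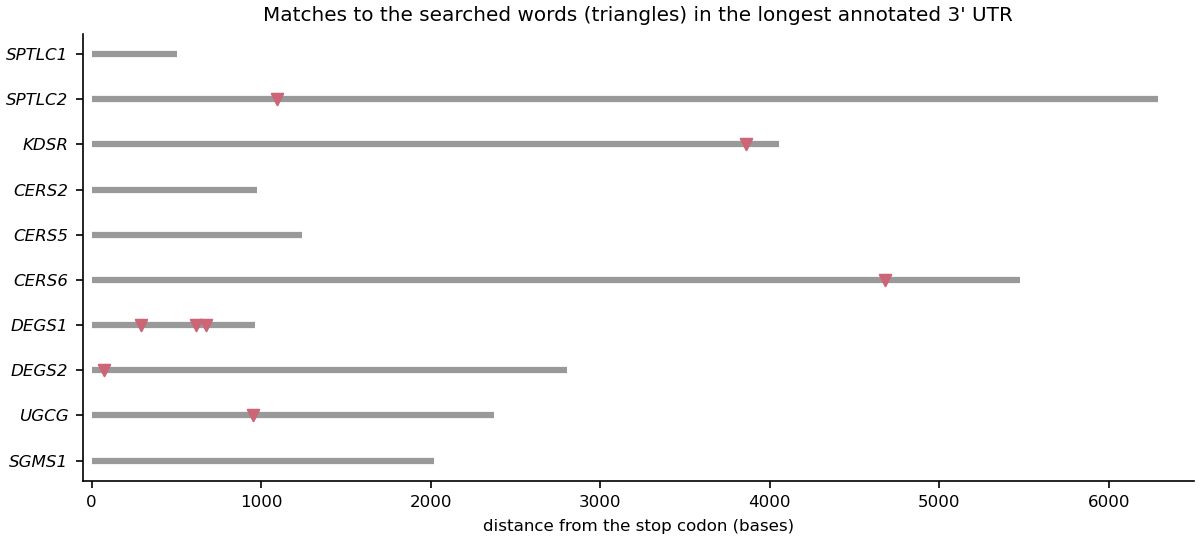
Longest annotated 3′ UTR of each member drawn to scale, in bases from the stop codon, with triangles at the matches to any of the 3 words. DEGS1 carries 3 copies of AGCTATT in 963 bases, and no word lies in SPTLC1, CERS2, CERS5 or SGMS1.

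SPTLC1 (chr9:92000087-92115384, minus strand) encodes the subunit shared by all serine palmitoyltransferase complexes, and SPTLC2 (chr14:77505997-77616773, minus strand) encodes a catalytic partner that carries the cofactor. SPTLC1 was at 116 and 124 CPM in vector and 63.4 and 62.2 CPM in shCHD7_2. Both shCHD7_2 samples lay under both vector samples, with a log2 fold change of -0.94 (SE 0.084), and 54 of the 11955 genes fell at least as far, SPTLC1 included. SPTLC2 was at 109 and 115.2 CPM in vector and 122 and 102 CPM in shCHD7_2. Here the groups overlapped, and the log2 fold change of -0.0017 (SE 0.088) went to -0.14 without shCHD7_2 replicate 1 and to 0.12 without shCHD7_2 replicate 2. The ratio of SPTLC1 to SPTLC2 FPKM was 3.27 and 3.30 in vector and 1.98 and 2.28 in shCHD7_2, lower in both shCHD7_2 samples. By estimated counts, which are not normalized for length, the ratio was 1.06 and 1.08 in vector and 0.521 and 0.609 in shCHD7_2. The size of its change thus depended on the unit.

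For SPTLC1 the size of the difference depended on the deposited unit. The ratio of mean FPKM was -0.66 on the log2 scale, from 47.9 ± 3.08 FPKM in vector to 30.4 ± 1.36 FPKM in shCHD7_2 (SD, n = 2 each). This is smaller than the -0.94 from counts scaled by TMM. With unscaled library totals in edgeR the value from counts was -0.89, so scaling made up part of the gap. Dividing each count by its FPKM and the library total gives the effective transcript length, in bases, that the tables imply. For SPTLC1 this length was 2506 and 2439 bases in vector and 2061 and 2139 bases in shCHD7_2, or 15.1% shorter. Of 10781 genes with at least 1 FPKM in every sample, 24 (0.223%, SPTLC1 included) shortened as much, and percentile 1 of the log2 ratio was -0.133. In the other tested members, DEGS1 included, the length moved by at most 4.62%, the largest change being that of SPTLC2. Between the groups, both the implied length and the counts of SPTLC1 were lower with shCHD7_2. Within each group, the sample with more counts had the shorter implied length. Whether the counted transcripts differed between the groups was not tested. GENCODE 29 lists coding transcripts of SPTLC1 of only 1894 and 946 bases, shorter than the implied length, so the 3′ UTR searched above may not be all that was counted.

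**Figure D3:**
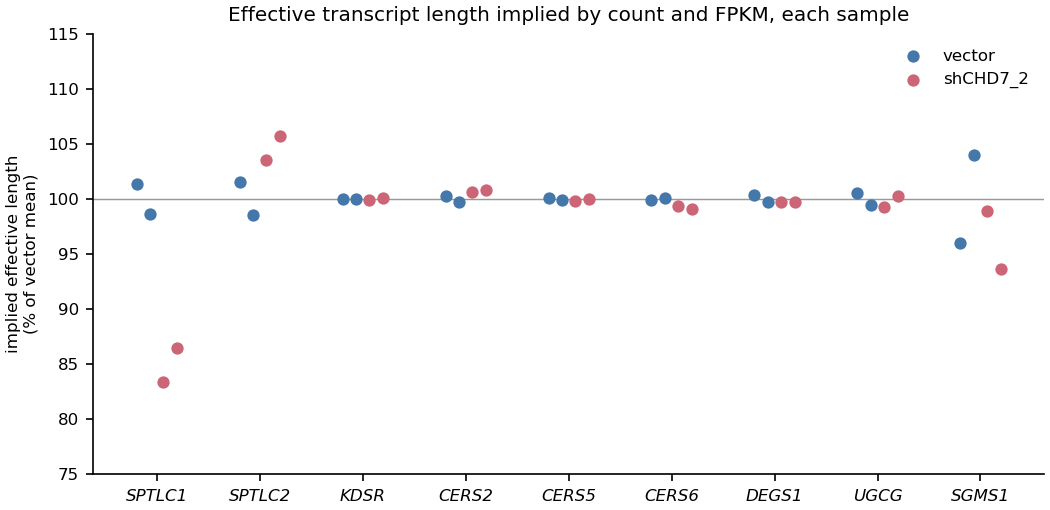
Effective transcript length implied by the deposited counts and FPKM, as a percent of the vector mean, for the 9 tested members. Points are the 4 single samples and the axis does not start at 0. In bases, SPTLC1 goes from 2506 and 2439 bases in vector to 2061 and 2139 in shCHD7_2, while DEGS1 stays between 1895 and 1907.

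KDSR (chr18:63327726-63367510, minus strand) encodes the reductase of the pathway's second step, which yields sphinganine. It was at 182 and 186 CPM in vector and 155 and 144 CPM in shCHD7_2. The groups did not overlap, and the log2 fold change was -0.30 (SE 0.077), short of the 1.5-fold threshold. The ratio of DEGS1 to KDSR FPKM went from 1.49 and 1.51 in vector to 0.672 and 0.736 in shCHD7_2, so the desaturase mRNA passed from the more to the less abundant of the pair.

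The ceramide synthases differ in the length of the fatty acid they attach. CERS2 (chr1:150960583-150975004, minus strand) uses very long chains, whereas CERS5 (chr12:50129306-50167533, minus strand) and CERS6 (chr2:168455862-168775137, plus strand) favour shorter ones such as palmitate. CERS2 was at 252 and 256 CPM in vector and 217 and 218 CPM in shCHD7_2, a log2 fold change of -0.22 (SE 0.073). CERS5 was at 85.6 and 85.7 CPM in vector and 73.7 and 73.3 CPM in shCHD7_2, a log2 fold change of -0.22 (SE 0.083). Both were about 14.2% lower, without overlap, and the replicates of each differed by less than the groups. CERS6 was at 138 and 151 CPM in vector and 152 and 141 CPM in shCHD7_2 and overlapped (log2 fold change 0.02, SE 0.081). By FPKM, CERS2 had the highest level of all members in both groups, with 118 FPKM in vector and 104 FPKM in shCHD7_2. Its share of the summed CERS2, CERS5 and CERS6 FPKM was 64.6% and 64.3% in vector and 62.4% and 63.2% in shCHD7_2. The share of CERS6 was 11.3% and 12.0% in vector and 14.1% and 13.2% in shCHD7_2. As group means, the share of CERS2 went from 64.4% to 62.8%, that of CERS5 from 23.9% to 23.6% and that of CERS6 from 11.7% to 13.6%. Each mean share moved by less than 2 percentage points, and the samples of CERS2 and of CERS6 did not overlap in share. The ratio of DEGS1 to CERS2 FPKM went from 0.452 and 0.461 in vector to 0.203 and 0.204 in shCHD7_2.

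UGCG (chr9:111896766-111935369, plus strand) encodes glucosylceramide synthase, the entry to most glycosphingolipids, and SGMS1 (chr10:50305586-50625163, minus strand) encodes the Golgi sphingomyelin synthase. UGCG was at 165 and 165 CPM in vector and 146 and 131 CPM in shCHD7_2. The groups did not overlap, and the log2 fold change of -0.25 (SE 0.079) ranged from -0.33 to -0.17 when single samples were left out. SGMS1 was the lowest of the tested members, with 17.3 and 16.3 CPM in vector and 15.0 and 14.1 CPM in shCHD7_2. Its CPM did not overlap, but its FPKM of 4.83 and 4.17 in vector and 4.18 and 4.13 in shCHD7_2 overlapped. The log2 fold change from counts was -0.21 (SE 0.12), against -0.09 on log2(FPKM + 1) and -0.11 on log2(FPKM + 0.1). The ratio of UGCG to SGMS1 FPKM, 9.14 and 10.7 in vector and 9.79 and 8.76 in shCHD7_2, overlapped between the groups. SGMS2, which encodes another sphingomyelin synthase, had a mean of 9.635 FPKM in vector and 9.065 FPKM in shCHD7_2, above SGMS1 in both groups. The ratio of UGCG to the summed SGMS1 and SGMS2 FPKM was 3.19 and 3.08 in vector and 2.86 and 2.99 in shCHD7_2, without overlap.

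In vector, the order of the members by mean FPKM was CERS2, DEGS1, SPTLC1, UGCG, CERS5, KDSR, CERS6, SPTLC2, SGMS1 and DEGS2. UGCG at 44.3 FPKM and CERS5 at 44.0 FPKM were almost level in it. In shCHD7_2 the order was CERS2, CERS5, UGCG, SPTLC1, KDSR, CERS6, DEGS1, SPTLC2, SGMS1 and DEGS2. There CERS5 at 39.0 FPKM and UGCG at 38.6 FPKM overlapped, as did SPTLC1 at 30.4 FPKM and KDSR at 30.2 FPKM.

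**Figure D4:**
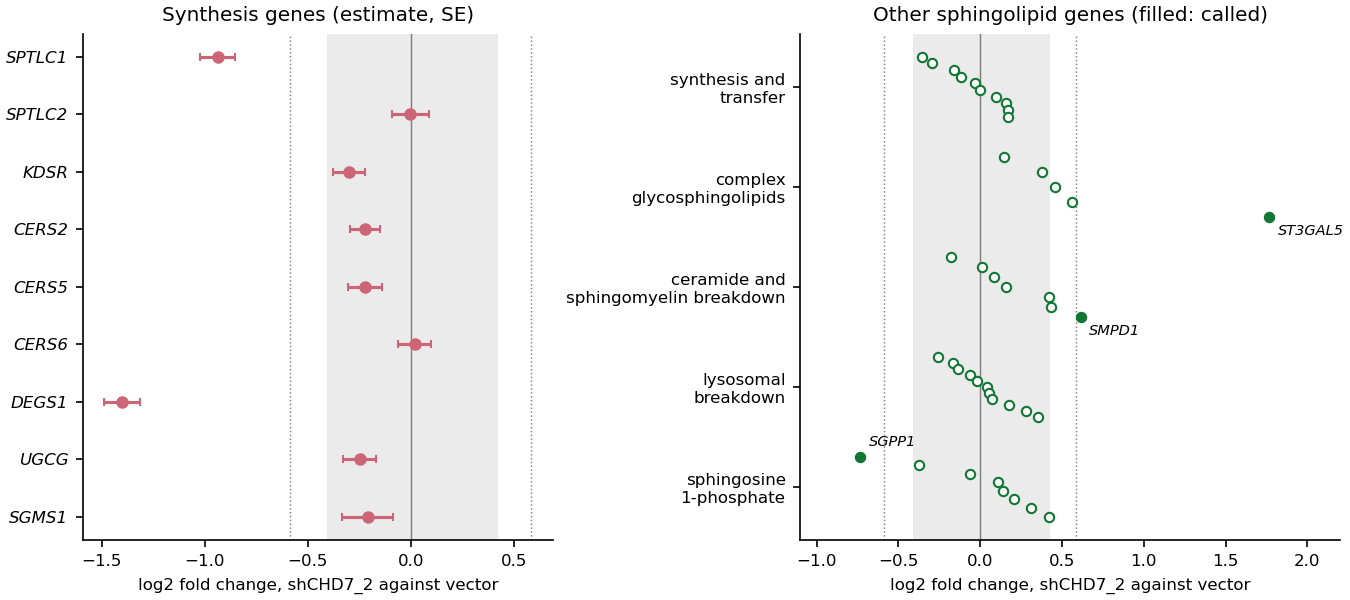
Log2 fold change of shCHD7_2 against vector from edgeR, on the left for the 9 tested members, with bars of 1 standard error, and on the right for the 41 tested genes of the other sphingolipid lists, where filled points are called genes. Dotted lines mark a fold of 1.5. The shaded band runs from percentile 5 (-0.40) to percentile 95 (0.42) of all genes tested. DEGS1 and SPTLC1 lie under the band, the other members lie within it, and ST3GAL5 stands highest.

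A further 64 genes of sphingolipid metabolism were listed from general knowledge and not for how they moved, though with earlier results of these data known. Of these, 54 were in the tables and 41 were tested. By edgeR's quasi-likelihood test 3 were called, ST3GAL5 and SMPD1 higher and SGPP1 lower, which is 7.32% against 2.88% of all genes tested. Their median log2 fold change was 0.10, with 26 higher and 15 lower. Among 10 tested genes of synthesis and transfer, which act beside the members, 0 were called by edgeR or DESeq2, and 2 had an unadjusted p under 0.05, against 25.4% of all 11955 genes tested. By mean FPKM the highest of these were ORMDL1, an inhibitor of serine palmitoyltransferase (log2 fold change -0.03), UGT8, which makes galactosylceramide (-0.29, adjusted p = 0.018 from edgeR), and CERK, the ceramide kinase (0.10). Of 5 tested genes of complex glycosphingolipid synthesis, downstream of UGCG, all 5 had a positive log2 fold change, against 5993 of all 11955 genes tested. In 4 of the 5 the groups did not overlap in CPM, with shCHD7_2 higher, against 26.4% of all genes tested. Only ST3GAL5 was called. ST3GAL5, the sialyltransferase that makes the ganglioside GM3 from lactosylceramide, rose from 1.48 and 2.60 CPM in vector to 6.80 and 7.14 CPM in shCHD7_2. Its log2 fold change was 1.77 (SE 0.23, adjusted p = 1.3e-05 from edgeR), on 23 and 41 counts in vector and 109 and 114 in shCHD7_2, and it was 1.42 without vector replicate 1 and 2.23 without vector replicate 2. B4GALT5, a lactosylceramide synthase named here after its values were seen, had a log2 fold change of 0.56 (SE 0.078, adjusted p = 3.3e-05 from edgeR), just under the fold threshold. With all 4 samples, B4GALT5 passed that threshold and was called with library totals in edgeR and in both limma fits with the FPKM minimum. It was not called in DESeq2, with DESeq2's size factors, with no filter or with at least 50 counts. Nor was it called with the replicate block, with the crossed block or in limma without a filter.

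Among 7 tested genes that break down ceramide and sphingomyelin, SMPD1, the acid sphingomyelinase of the lysosome, was called. It rose from 10.4 and 10.6 CPM in vector to 14.5 and 17.5 CPM in shCHD7_2, with a log2 fold change of 0.61 (SE 0.14, adjusted p = 0.0050 from edgeR). The call was lost without shCHD7_2 replicate 2, where the value was 0.47. Of 11 tested genes of lysosomal glycosphingolipid breakdown, 0 were called by edgeR or DESeq2. In 3 the unadjusted p from edgeR was under 0.05, against 25.4% of all 11955 genes tested. Among the highest by FPKM were PSAP, the saposin precursor (log2 fold change 0.07), and NEU1, a sialidase (0.28, adjusted p = 0.035 from edgeR). Among 8 tested genes of sphingosine 1-phosphate turnover and signalling, SGPP1, the phosphatase that returns sphingosine 1-phosphate to sphingosine, was called. SGPP1 fell from 55.2 and 58.2 CPM in vector to 36.5 and 31.8 CPM in shCHD7_2, with a log2 fold change of -0.73 (SE 0.094, adjusted p = 1.3e-05 from edgeR). Its 3′ UTR of 1891 bases held AGCTATT 2 times, and 22.5% of genes with a 3′ UTR within 20% of that length held at least 1 of the words. The 3′ UTRs of ST3GAL5 and SMPD1 held none, where 35.8% and 4.62% of genes of like length held at least 1. The words had been picked out from genes lower in this contrast, so nothing is read from these matches. All 3 calls were lost on log2(FPKM + 1) with no filter on low values, where 18 of the 53 genes tested had an unadjusted p under 0.05, against 19.8% of all 15067 genes in that fit.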

How the data were processed

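RNA-seq libraries came from RKO cells, 2 vector and 2 shCHD7_2 samples, grouped by their titles. The authors deposited estimated counts per gene, not normalized, of which 13.6% to 14.7% per sample were not whole numbers. The authors also deposited FPKM, normalized for gene length and depth. The submitters' processing notes name Bowtie2, RSEM, DESeq2 and hg38, without versions or roles. Estimated counts split reads between similar genes, so paralogues are less certain. The labels do not say that replicates were separate cultures, so p-values measure only the spread between these samples, which may be technical. With 2 samples against 2, the smallest two-sided permutation p is 0.333.

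Counts were rounded to whole numbers. In R 4.3.3, edgeR 4.0.16 was used with filterByExpr, TMM and the quasi-likelihood test (biological coefficient of variation 0.0579), with Benjamini-Hochberg adjustment over 11955 genes. Calls needed an adjusted p under 0.05 together with a fold of at least 1.5, the study's thresholds. The members, the lists and the UTR words were chosen with earlier results of these data known. Genes named are the members, CHD7, called genes of the other lists, otherwise up to 3 of a list's genes with the highest mean FPKM, and the 3 genes nearest to DEGS1 by log2(CPM + 0.5). B4GALT5 was added after its values were seen. The value of 1 gene under this rule is not reported here. Replicates of a group differed by more than counting error, with a chi-square per gene of 3.94 in vector and 6.05 in shCHD7_2. Coordinates, 3′ UTRs and sequences are from GENCODE 29 on GRCh38, read with Python 3.11.15, numpy 2.4.6 and pandas 2.3.3. RefSeq promoters were not used here.

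Alternatives were edgeR with DESeq2's size factors or unscaled library totals, DESeq2 1.42.0 itself, no filter or at least 50 counts in 2 samples, a replicate block, no fold threshold, limma 3.58.1 on log2(FPKM + 1) or log2(FPKM + 0.1) restricted to a mean FPKM of 1 or more, or the former unrestricted, and each sample left out in turn. A crossed block was added after the data were seen.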

Additional observations from a re-analysis of the deposited data

How the results depend on the processing

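The log2 fold changes of CHD7, DEGS1, SPTLC1, ST3GAL5, SMPD1 and SGPP1 kept their sign in all settings tried. Against 344 genes called in edgeR, DESeq2 called 219, edgeR with no filter on low counts 141, limma on log2(FPKM + 1) 172 with the minimum mean FPKM and 23 without it, and edgeR with no fold threshold 1373. Leaving out each sample gave 308 to 380, with the lone sample assumed to vary like the other group. The 2 members called, DEGS1 and SPTLC1, were called in every setting except limma on log2(FPKM + 1) without a filter, where 1 was called (DEGS1), and with no fold threshold 4 passed. Leaving out each sample gave 2 to 2. Of the other sphingolipid genes, 3 were called in edgeR, 0 in limma without a filter and 13 with no fold threshold, and leaving out each sample gave 3 to 5, the 5 being without vector replicate 1. The log2 fold change of CHD7 was -0.51 on log2(FPKM + 1), with and without the filter, and -0.58 on log2(FPKM + 0.1), all short of a fold of 1.5, and -0.82 to -0.67 when samples were left out. The ratio of CHD7 mean FPKM with nothing added was -0.591 on the log2 scale. SMPD1 was also not called in edgeR with no filter, nor in limma on log2(FPKM + 1). Across the settings DEGS1 ranged from -1.43 to -1.31 and SPTLC1 from -0.99 to -0.64, the values nearest 0 being those from FPKM. The causes were not tested, except that the fits without a filter tested more genes. Same-numbered samples did not deviate together (correlation -0.252 across 11955 genes), so pairing by number was not seen. With 2 samples per group, the correlation of opposite-numbered samples has the same size and the opposite sign by construction. With the replicate block 329 genes, 2 members and 3 other genes were called, and CHD7 was at -0.74. With the crossed block 423, 2 and 3 were called. There 40.5% of the genes had an unadjusted p under 0.05 from edgeR, against 25.4% in the main fit. What opposite-numbered samples may share was not tested. DEGS2, at 0 or 1 counts per sample, could not be compared at this depth.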
